A study of Mus musculus with 2 samples.

Results

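Mitochondria import nearly all of their proteins unfolded, and a small set of chaperones and proteases folds these proteins, assembles them and removes those that fail. When this system is overloaded, a stress response raises the amount of chaperones and proteases. In mammalian cells one route of this response runs through ATF4, a bZIP transcription factor whose translation increases when the initiation factor eIF2 is phosphorylated: the inner membrane protease OMA1 cleaves DELE1, and DELE1 then activates an eIF2 kinase. Whether the genes of the chaperones and proteases themselves carried ATF4 signal in neurons was examined for 10 genes, chosen by name for this role: the chaperone genes Hspa9, Hspd1, Hspe1 and Trap1, the matrix protease genes Lonp1, Clpp and Clpx, and the inner membrane protease genes Afg3l2, Yme1l1 and Oma1. They are 10 of the 21887 protein-coding genes that RefSeq places on the 21 chromosomes with peaks.

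ATF4 occupancy was measured by CUT&Tag, in which an antibody directs the transposase pA-Tn5 to the DNA around a protein and the cut fragments are sequenced. The series holds 2 libraries from primary neurons of C57BL/6 mice, taken from embryonic cortex and hippocampus and cultured, 1 with an ATF4 antibody and 1 with IgG, from 100000 cells each. The labels give no difference in genotype between them, and the sources used here do not state whether these neurons had received hemin, the hemoglobin product with which the study injures neurons. The deposited list holds 7873 peaks of the ATF4 library with a median fold enrichment of 4.33 over the background of the peak caller. The IgG library was not analysed here, and the sources used here do not say whether it served as the control of the peak caller. No value below can therefore be read as an enrichment over IgG. A single library gives neither a replicate error nor a test between conditions, and a peak list cannot show whether the cells expressed neuronal markers. The total number of fragments sequenced is unknown.

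A peak was counted for a gene when its summit lay inside the gene or within 10 kb of either end. Of the 10 genes, 3 had such a peak: Hspa9, Afg3l2 and Trap1. Over all protein-coding genes the share was 24.8%, and it was 23.1% among the 14184 genes whose length fell between that of Hspe1 (3.17 kb) and that of Oma1 (60.0 kb), the shortest and the longest of the 10. A count of 3 of 10 is therefore near the background. All 3 genes had a summit within 1 kb of a gene end, a position held by 8.13% of protein-coding genes. Where a -log10 q of 5 or more was required, Hspa9 and Afg3l2 were left, 2 of 10 against 6.21% of protein-coding genes. Nearest to the edge of the window, the outer peak of Hspa9 lay inside it at 5.20 kb, and the peaks nearest to Lonp1 and Clpp lay outside it at 14.6 and 14.7 kb. Nearest to the q threshold, Afg3l2 passed at 5.06 and Trap1 missed it at 4.31. No test was run on these counts, because the genes were picked with earlier results of this library known.

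**Figure D1:**
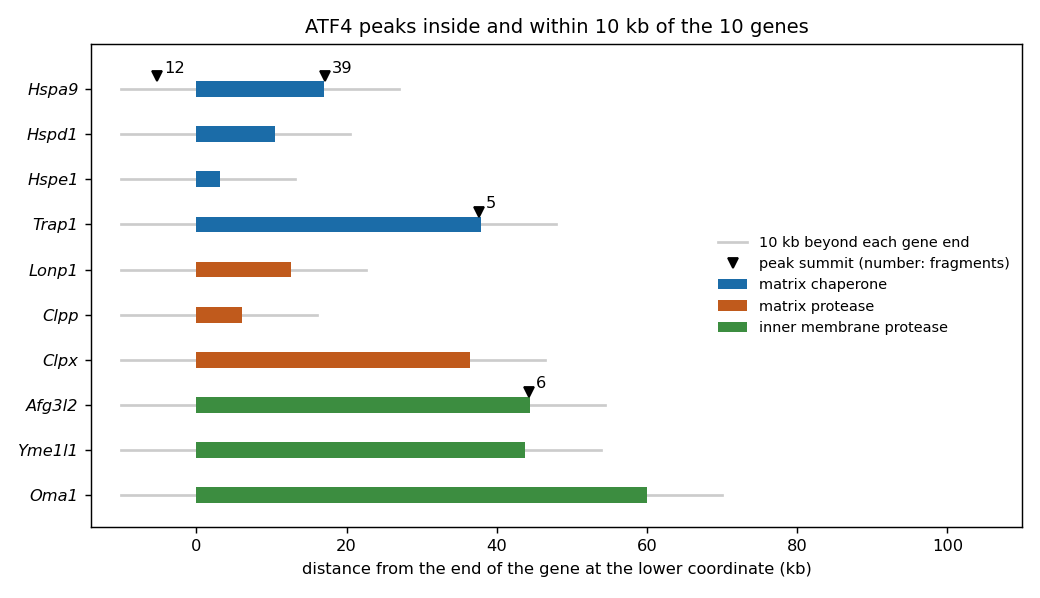
The 10 genes are drawn to scale as bars, aligned at the end with the lower coordinate, on an axis of distance in kb, with the 10 kb beyond each end as a grey line and each peak summit as a triangle with its number of fragments. Of the 4 summits, 3 sit at the end with the higher coordinate (39 fragments at Hspa9, 6 at Afg3l2 and 5 at Trap1) and the other, of 12 fragments, lies 5.20 kb outside the opposite end of Hspa9.

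Among the chaperones, Hspa9 encodes mortalin, the Hsp70 of the mitochondrial matrix, which pulls proteins through the import channel and folds them. On chromosome 18 (mm10) its gene runs from 34937414 to 34954351, and a tall peak lay at the end with the higher coordinate, from 34954340 to 34954741. Its summit was 236 bp outside the gene. The peak was 402 bp wide with a fold enrichment of 17.0, a -log10 p of 43.3 and a -log10 q of 38.0 (q = 9.08e-39). At the summit 39 fragments were stacked (exact Poisson 95% interval 27.7 to 53.3, counting error only) over a local background of 1.35. No other annotated gene lay within 10 kb of this summit. The peak ranked 68th of the 7873 peaks by q-value and 38th by fold enrichment. Among the 1527 peaks whose summit was no more than 1 kb from the end of some protein-coding gene it ranked 28th by q-value, and 79 peaks of the library held at least 39 fragments.

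A further peak in the window of Hspa9, from 34931998 to 34932474, lay 5.20 kb outside its other end. It had a width of 477 bp, a fold enrichment of 8.56 and a -log10 q of 9.23, and ranked 405th by q-value. Its 12 fragments (6.20 to 21.0) had an interval below that of the first peak. This summit was 206 bp from an end of Etf1, the gene of the factor that ends translation at stop codons, and the annotation also places the snoRNA gene Gm22200 within 10 kb of it. When each peak was given to its nearest protein-coding gene, it counted for Etf1 and Hspa9 kept 1 peak. Within 100 kb of Hspa9 the list held 5 peaks, and the other 3 had 4 to 9 fragments.

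Trap1 encodes the mitochondrial Hsp90. Its gene lies on the minus strand of chromosome 16, from 4039971 to 4077840, and its peak ran from 4077581 to 4077800, a width of 220 bp. The summit was inside the gene, 253 bp from its end and 223 bp downstream of the RefSeq start at 4077810. The peak had a fold enrichment of 5.27, a -log10 p of 8.07 and a -log10 q of 4.31 (q = 4.89e-05), a value common to 112 peaks of the library, at rank 1887. It rested on 5 fragments (1.62 to 11.7) over a local background of 0.138. Crebbp, the gene of the coactivator CBP, had its nearer end 3.75 kb from the same summit.

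The RefSeq promoter table (GRCm38.p6, the assembly known as mm10) matched 8 of the 10 genes, from 250 bases before to 50 bases after a start; Hspa9 and Afg3l2 had no entry. These promoters were searched on both strands for TGATGNAAN, the C/EBP-ATF response element, for TGACGTCA, the full cyclic AMP response element to which bZIP dimers bind, and for TGCAAT, the C/EBP side of the first element. No promoter of the 8 genes held TGATGNAAN, which 3.58% of all 21263 promoters of protein-coding genes did. TGCAAT was found at Hspd1 and Hspe1, in 2 of the 9 promoters of the 8 genes, against 7.49% of all promoters. Both matches are the same site, which the promoters of this pair share. TGACGTCA was found at Trap1 alone of the 8, in 1 of the 9 promoters, against 2.23% of all promoters. At Trap1 the element started 47 bases before the gene's start. It lay outside the called peak, 50 bp beyond its edge and 263 bp from the summit. The promoter of Trap1 is shown because it belongs to the only peak of the 10 genes with a promoter in the table. It covers the stretch from 31 to 250 bases before the start, outside every annotated gene (chr16:4077841-4078060, minus strand), with the element in capitals:

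Trap1: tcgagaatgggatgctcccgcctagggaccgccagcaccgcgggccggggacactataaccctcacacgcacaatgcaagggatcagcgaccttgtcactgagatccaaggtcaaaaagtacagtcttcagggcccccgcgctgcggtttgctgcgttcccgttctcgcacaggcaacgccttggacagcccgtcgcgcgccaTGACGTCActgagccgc

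The same 8 letters occurred at a gene outside the 10, Xpnpep3, which encodes a mitochondrial aminopeptidase. There the nearest called peak was 66.3 kb away. TGCAAT also occurred in promoters of Bcs1l, 33 bp from a called peak, and Pmpcb, 88.8 kb from one, which are not shown. Among the listed genes with a promoter entry, the match of Timm17b was the only one inside a called peak. Its stretch lies inside the neighbouring gene Pqbp1. The short stretches below, of 30 bases each, set sites side by side, with the matched letters in capitals. They are Xpnpep3 (chr15:81400063-81400092), the site shared by Hspd1 and Hspe1 (chr1:55087937-55087966, printed on the strand of Hspe1) and Timm17b (chrX:7899212-7899241).

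Xpnpep3: acctagccgagTGACGTCActgctctgcgc
Hspe1: acgccggggcccTGCAATctgcatgcggcg
Timm17b: actctccccaggTGCAATtaactggtcgca

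Across all promoters of protein-coding genes, a summit lay within 1 kb of the start for 15.4% of those with TGACGTCA and for 7.85% of those without it. The shares were 9.58% with TGATGNAAN and 7.96% without, and 6.03% with TGCAAT and 8.17% without. A match in a promoter is a description of these letters and does not show binding.

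Hspd1 and Hspe1 encode the 60 kDa chaperonin and its lid, which together enclose and fold matrix proteins. Both genes lie head to head on chromosome 1, Hspd1 from 55077833 to 55088243 on the minus strand and Hspe1 from 55088148 to 55091317 on the plus strand, so that their first bases overlap and a peak there would have counted for both. None was called inside either gene or within 10 kb. Their nearest peak, from 55052547 to 55052756, was 25.1 kb from Hspd1 and 35.4 kb from Hspe1. It held 4 fragments (1.09 to 10.2) and lay 55 bp from an end of Coq10b, a gene of coenzyme Q handling. The TGCAAT site in the promoters of this pair was 35.2 kb from that peak.

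None of the 3 matrix protease genes had a peak in its window, as was the case for 16468 of the 21887 protein-coding genes. Lonp1 encodes the LON protease, which degrades oxidized and misfolded matrix proteins. On chromosome 17 (56614297 to 56626903) its nearest summit was 14.6 kb away, inside Catsperd and 14567 bp from the nearer end of that gene, with 4 fragments and a fold enrichment of 4.39. Clpp, the proteolytic chamber of the CLPXP protease, lies on the same chromosome (56990264 to 56996371). Its nearest summit, of 3 fragments, was 14.7 kb away inside Gtf2f1. Clpx, which encodes the unfoldase of the same complex, was 52.6 kb from a peak of 3 fragments near Ubap1l.

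Of the inner membrane proteases, Afg3l2 had a peak. It encodes a subunit of the m-AAA protease, whose active sites face the matrix. On chromosome 18 the gene runs from 67404764 to 67449192, and the peak from 67448765 to 67449230 spanned its end with the higher coordinate. The summit was inside the gene, 172 bp from this end, and no other annotated gene lay within 10 kb. The peak was 466 bp wide, at the 95.5 percentile of widths in the library, with a fold enrichment of 5.93, a -log10 p of 8.96 and a -log10 q of 5.06 (q = 8.70e-06), at rank 1431. It rested on 6 fragments (2.20 to 13.1) over a local background of 0.181. The intervals of the peaks of Afg3l2 and Trap1 overlapped, so their heights could not be ordered at this depth, while both lay below the interval of the tall Hspa9 peak.

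Yme1l1 encodes the i-AAA protease, which faces the intermembrane space. It was the farthest of the 10 from any peak, at 260.0 kb, and no peak lay within 100 kb of it. Oma1, the stress-activated peptidase, was 141.9 kb from its nearest peak and likewise had none within 100 kb. The nearest peaks of both genes held 3 fragments, the smallest number in the list. Over the 10 genes the median distance to the nearest summit was 19.9 kb, against 61.7 kb over all protein-coding genes, and 8 of the 10 were nearer than that median. Of the lists described below, the 42 other genes of the system had a median of 35.1 kb. The 16 relatives in cytosol and endoplasmic reticulum had one of 11.6 kb. For 27.6% of protein-coding genes a peak was at least as near as at Lonp1, and 16.2% were as far from a peak as Yme1l1 or farther.

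**Figure D2:**
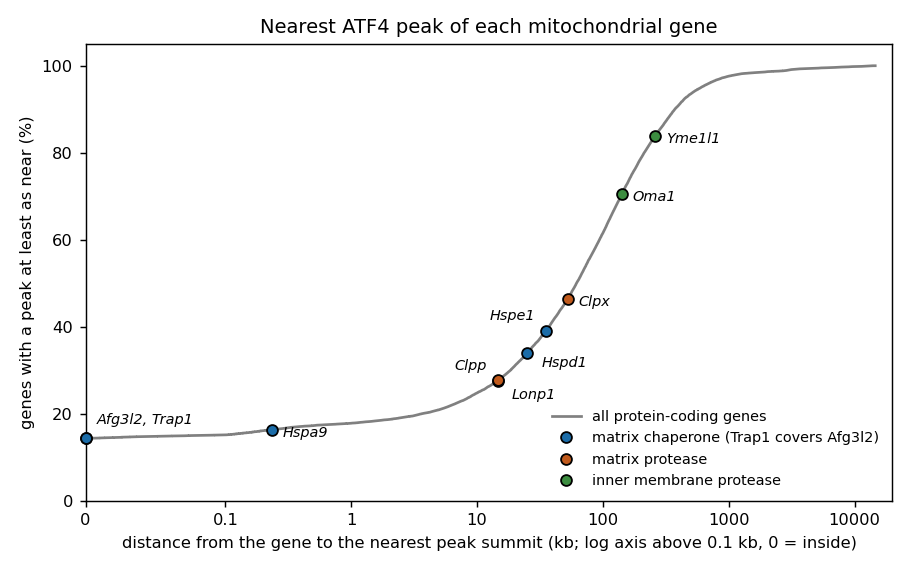
The grey curve gives the percentage of all protein-coding genes with a peak at least as near as the distance on the horizontal axis (kb, log axis above 0.1 kb, with 0 for a summit inside the gene), and the points mark the 10 genes, coloured by their place in the mitochondrion. Afg3l2 and Trap1 lie at 0 and Hspa9 at 0.236 kb, while Oma1 and Yme1l1 lie beyond 100 kb.

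The absence of a peak says little about weak binding at this depth. A called peak held at least 3 fragments, and 3224 peaks (41.0%) held exactly 3, with a Poisson interval of 0.619 to 8.77 fragments that includes the counts at Trap1 and Afg3l2. The tall peak of Hspa9 is the exception among the 10 genes, since its lower limit of 27.7 fragments lies above the upper limits at Trap1 and Afg3l2.

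**Figure D3:**
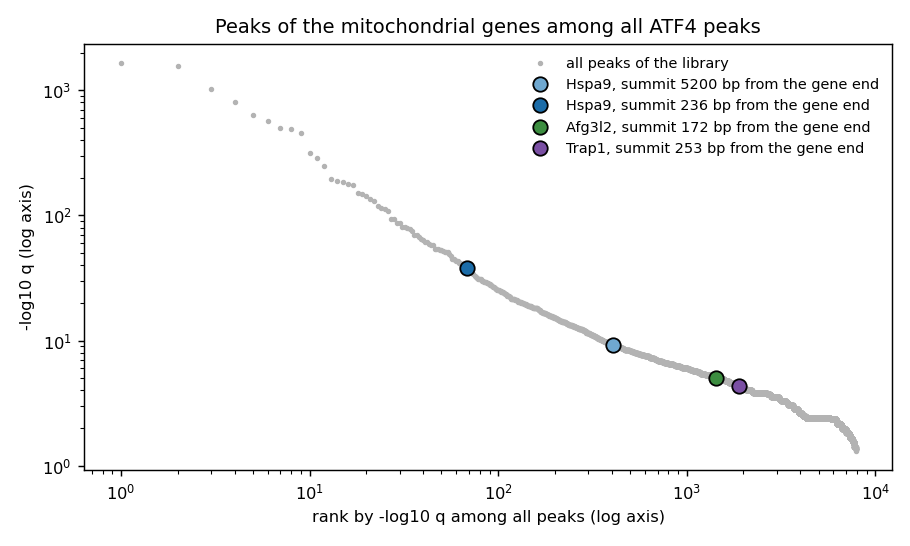
Each grey point is 1 of the 7873 peaks, plotted by its rank (horizontal, log axis) and its -log10 q (vertical, log axis), and the coloured points are the 4 peaks in the windows of the 10 genes. The peaks at Hspa9 rank 68th and 405th, those at Afg3l2 and Trap1 1431st and 1887th.

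The other genes of the same system were taken from lists of 42 genes. Of these, 14 had a summit inside or within 10 kb (33.3%, against 24.8% of protein-coding genes), 11 had one within 1 kb of a gene end (26.2%, against 8.13%) and 4 had a peak whose -log10 q reached 5 (9.52%, against 6.21%). Among the other proteases it was 5 of 12. Spg7 encodes paraplegin, the partner of AFG3L2 in the m-AAA protease, and its peak on chromosome 8 from 123065449 to 123065730 had its summit 90 bp downstream of the start, with 5 fragments (1.62 to 11.7) and a -log10 q of 4.31. No other gene lay within 10 kb of this summit. Htra2, the gene of an intermembrane space serine protease, had a summit 85 bp outside its end with 5 fragments, in a window shared with Aup1, Loxl3, Dqx1 and the microRNA gene Mir7040. Pmpca, a subunit of the peptidase that removes targeting signals, Xpnpep3 and Immp2l had peaks of 3 fragments, those of Immp2l 189.6 kb or more from its ends. The Xpnpep3 summit lay 8.93 kb outside that gene, within 1 kb of an end of Rbx1. The window of the Pmpca peak was shared with Snapc4, Entr1 and Inpp5e.

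Of the 10 cofactors and other chaperones, Bcs1l had a peak, of 3 fragments and 241 bp upstream of its start, in a window shared with Zfp142 and Rnf25. Grpel1 and Grpel2, the nucleotide exchange factors of mortalin, and its J-domain partners Dnaja3, Dnajc15, Dnajc19 and Hscb had none. Of the scaffolds and substrates, Opa1, the fusion protein that OMA1 and YME1L1 cleave, had a peak of 6 fragments (2.20 to 13.1) inside the gene, 5.29 kb from its end, with a -log10 q of 5.42. Stoml2 had a pair of peaks of 5 and 4 fragments in windows shared with Pigo and Fam214b. Phb, Phb2 and Dele1 had none.

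Among the 10 import genes, Tomm40, the channel of the outer membrane, had a peak of 10 fragments (4.80 to 18.4) with a -log10 q of 5.73, 512 bp outside its end. Nectin2 and the non-coding gene Gm38955 each had an end within 1 kb of the same summit. Tomm20, an import receptor, had 5 fragments 71 bp upstream of its start, and Timm17b, a subunit of the inner membrane translocase, had 6 fragments 72 bp upstream, with ends of other genes within 1 kb of both summits. Of the 5 regulators, Ddit3, the gene of CHOP, carried peaks of 61 and 31 fragments, Atf5 of 17 and 16, and Hsf1, the heat shock factor gene, of 5. The windows of the Ddit3 peaks also held Dctn2, Mbd6 and Mars1, those of the Atf5 peaks Nup62 and Il4i1b, and that of Hsf1 Bop1. The local background at the Ddit3 peaks was 6.21 and 6.23, against 1.35 at the tall peak of Hspa9, which ranked above both by q-value (68th against 74th and 503rd) and by fold enrichment (17.0 against 8.60 and 4.43). The fragment interval of that Hspa9 peak (27.7 to 53.3) overlapped those of the Ddit3 peaks (46.7 to 78.4 and 21.1 to 44.0). Atf4 and Cebpb had no peak within 10 kb. Ddit3 and Atf5 are known ATF4 targets, so their peaks are not independent of the choice of the list. Without the regulators 11 of 37 genes had a peak within 10 kb (29.7%, against 24.8%), 8 of 37 had one within 1 kb of a gene end (21.6%, against 8.13%) and 2 of 37 had one whose -log10 q reached 5 (5.41%, below the 6.21% of protein-coding genes). When each peak counted for its nearest gene only, 8 of the 42 genes had one (19.0%, against 19.1% of protein-coding genes).

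**Figure D4:**
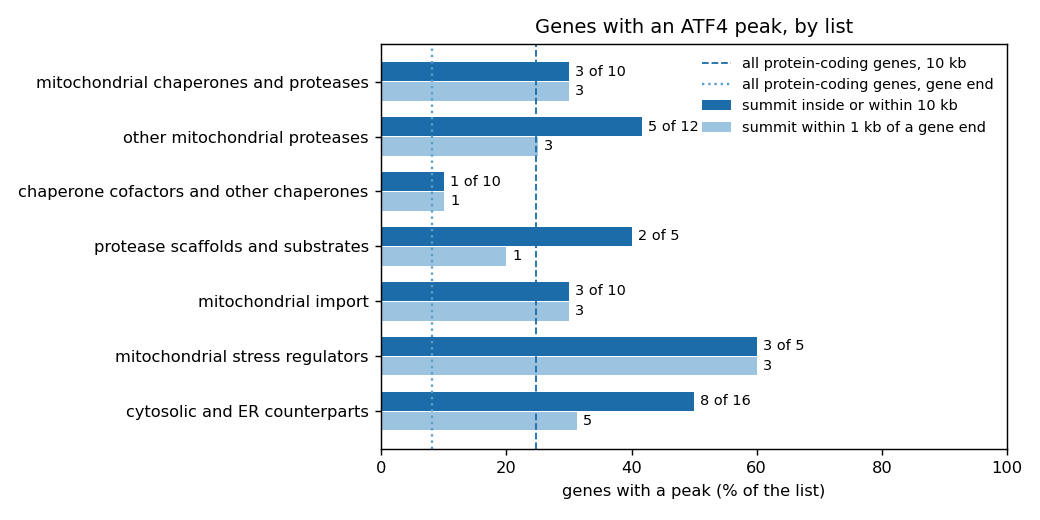
Bars give the percentage of genes in each list with a summit inside or within 10 kb (dark) or within 1 kb of a gene end (light), with the counts beside them, and the vertical lines mark the shares over all protein-coding genes (24.8% dashed, 8.13% dotted). The 10 mitochondrial chaperone and protease genes stand at 3 for both measures, the cofactors at 1 of 10 and the regulators at 3 of 5.

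The cytosolic and endoplasmic reticulum relatives of the chaperones were set beside them. Of 16 genes, 8 had a peak within 10 kb (50%, against 24.8% of protein-coding genes) and 5 had one within 1 kb of a gene end (31.2%, against 8.13%). With stricter peaks the count depended on the measure: 7 of 16 had a peak above the median fold enrichment (43.75%, against 14.3%), 3 of 16 one of at least 6 fragments (18.8%, against 8.35%) and 1 of 16 one whose -log10 q reached 5 (6.25%, against 6.21%). By the nearest gene only it was 3 of 16 (18.8%, against 19.1%). Beside Hspa9, 5 Hsp70 genes were examined. Of these, Hspa8, Hspa4 and Hspa5 had no peak within 10 kb, and Hspa1a and Hspa1b shared a peak of 5 fragments that lay between them, 6.96 kb from Hspa1a and 3.16 kb from Hspa1b. On its other side Hspa1b had a peak of 3 fragments at 9.40 kb. Hspa1a and Hspa1b are near-identical copies, for which reads within the genes cannot be assigned with certainty. In the Hsp90 family, Trap1 with 5 fragments stood beside Hsp90b1, the endoplasmic reticulum form, with 6 fragments 555 bp upstream of its start, and Hsp90ab1 with 3, and their intervals overlapped. Hsp90aa1 had none. In the chaperonin family Hspd1 had no peak, and Cct3, Cct4, Cct5 and Cct7, of the 8 subunits of the cytosolic chaperonin, had peaks of 4 to 8 fragments. The tallest of these, at Cct7, held 8 (3.45 to 15.8), an interval below that of the tall Hspa9 peak and overlapping that of the other Hspa9 peak. The summit counted for Cct5 lay 7.585 kb from the gene and that of a Cct3 peak 9.94 kb. Other genes lay within 10 kb of each Cct summit.

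**Figure D5:**
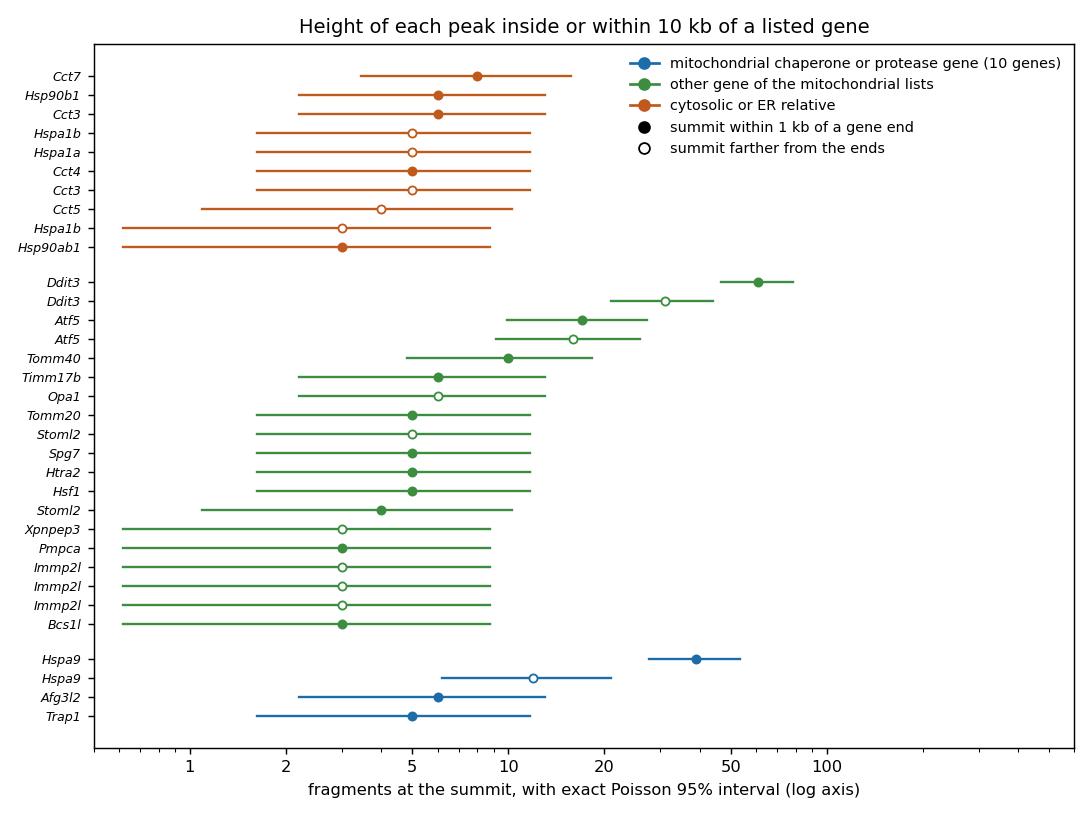
Each point gives how many fragments were stacked at the summit of a peak inside or within 10 kb of a listed gene (log axis), with its exact Poisson 95% interval for counting error, filled where the summit lies within 1 kb of an end of that gene. Among the 10 mitochondrial chaperone and protease genes the gene-end peak of Hspa9 stands at 39 fragments, between the peaks of Ddit3 at 31 and 61, which stood on a higher local background, while Afg3l2 and Trap1 lie among the peaks of 3 to 10 fragments of the genes outside the regulators.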

How the data were processed

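CUT&Tag fragments of the ATF4 library were aligned and peaks called by the authors, whose processing notes name FastQC, BWA, MACS2 2.1.2, deepTools and mm10; the settings and the control are not given in the sources used here. In the deposited list each peak has a fold enrichment, which is a ratio over background, a p-value and a q-value, both as -log10, and a score. This deposited score was the -log10 q times 10 without its decimals in all 7873 peaks. Gene positions came from RefSeq (GRCm38.p6, the same assembly).

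The fragments at each summit and the local background were solved from the caller's values. The fold was read as (fragments + 1) / (background + 1), and the chance of more fragments under a Poisson law gave the p-value. A whole number met the -log10 p within 0.001 in all 7873 peaks, and a single number did so within 0.0001 in 7871 of them, among these every peak in the windows of the listed genes. If single reads were counted, these are reads. PCR copies of 1 molecule may be among the fragments, so the intervals describe counting error alone.

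The 10 genes and all gene lists were chosen with earlier results of these data known, and no list was tested. All 10 genes, genes sharing a window with their peaks and up to 6 genes with a peak per further list were to be named. Cct5, Hsp90ab1 and the genes without a peak in those lists are outside this rule, since they were picked with their values in view. The sequences are RefSeq's. Alternatives were other windows, overlap in place of the summit, stricter peaks and the nearest gene only. The scripts used matplotlib 3.10.9, pandas 2.3.3, scipy 1.17.1 and numpy 2.4.6 under Python 3.11.15.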

Additional observations from a re-analysis of the deposited data

How the results depend on the processing

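Among the 10 genes, the count with a peak stayed at 2 or 3 under every alternative except a window of 20 kb, which gave 5, adding Lonp1 and Clpp, against 31.1% of protein-coding genes. Trap1 was lost with a -log10 q of at least 5 and with at least 6 fragments, which left 2 of 10 against 6.21% and 8.35% of protein-coding genes. The count was 3 of 10 against 14.3% for peaks above the median fold enrichment, 17.8% and 19.4% for windows of 1 kb and 3 kb, 19.1% by the nearest gene only and 24.8% where any overlap with the window counted. The 14 of 42 other mitochondrial genes became 4 where -log10 q had to reach 5 (9.52%, against 6.21% of protein-coding genes), 5 with at least 6 fragments (11.9%, against 8.35%) and 8 by the nearest gene only (19.0%, against 19.1%). The 8 of 16 relatives in cytosol and endoplasmic reticulum became 1 (6.25%), 3 (18.8%) and 3 (18.8%) under the same alternatives, and 5 (31.2%) with a window of 1 kb or 3 kb, against 17.8% and 19.4%. By the nearest gene only, the shares of both lists were thus at the background. The stricter thresholds and narrower windows keep fewer peaks by construction. There is 1 ATF4 library, so no replicate could be left out, and its depth limits the small peaks.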
